A study of Mus musculus with 5 samples.

Results

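The transcripts described here are those of 10 genes that are induced by, or act back on, the ERK kinase cascade: Dusp4, Dusp6, Spry1, Spry2, Spry4, Spred1, Spred2, Etv5, Phlda1 and Ccnd1. They were taken by name from 17902 genes listed in at least 1 of 5 single-cell libraries of the mouse heart, and all 10 were listed in all 5 libraries. Levels are sums of unique molecular identifiers (UMIs, 1 per captured transcript) over the cells of a class in a library, given as CPM (counts per 1e6 UMIs of that sum). The assay reads transcript 3′ ends, so a level is compared between cells and not between genes.

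Cardiac interstitial cells were freed with collagenase, cleared of cardiomyocytes and sorted on surface cKit, DDR2 and CD45. cKit is a receptor tyrosine kinase, DDR2 a collagen receptor used to enrich fibroblasts, and CD45 a surface phosphatase of leukocytes. The sorts were cKit+/DDR2- (2 libraries), cKit+/DDR2+/CD45- (1), cKit+/DDR2+/CD45+ (1) and cKit-/DDR2+ (1). No treatment is named for any group. Strain, age, sex and the number of animals behind a library are not given in the sources used here, so the spread between libraries may be partly technical. The 5 libraries held between 4047326 and 44847778 UMIs.

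Growth factor receptors switch on RAS and the kinases RAF, MEK and ERK in turn, and ERK induces genes that damp the same cascade. Sprouty proteins (Spry1, Spry2, Spry4) and the related Spred proteins (Spred1, Spred2) act between receptor, RAS and RAF. Dusp6 and Dusp4 are phosphatases that take the activating phosphates off MAP kinases, in the cytoplasm for Dusp6 and in the nucleus for Dusp4. Etv5 is an ETS transcription factor, Phlda1 a pleckstrin homology-like protein induced by growth factors, and Ccnd1 (cyclin D1) links growth factor signals to entry into the cell cycle. In endothelium this cascade runs downstream of VEGF and FGF receptors, and in fibroblasts downstream of PDGF and FGF receptors.

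Several features of the libraries bear on every comparison. Of the 436 cell barcodes of cKit+/DDR2- replicate 1, 190 also occur in cKit+/DDR2+/CD45+, where other pairs of libraries share 1 to 3. These barcodes had a median of 622.5 UMIs in cKit+/DDR2+/CD45+, against 12133.5 in cKit+/DDR2- replicate 1, and the 2 profiles of 1 barcode correlated at a median r of 0.54, against 0.41 for different barcodes. They were left out of cKit+/DDR2+/CD45+, and a fit with them kept is among the alternative settings below. Xist was high in cKit+/DDR2- replicate 2 and cKit+/DDR2+/CD45- (496 and 757 CPM over all cells) and Ddx3y was at 0 there, whereas the other 3 libraries had Xist at 0 to 0.07 CPM and Ddx3y at 58.7 to 98.6 CPM. The same 2 libraries had 90876 and 105710 CPM of Gm42418, a gene that overlaps ribosomal RNA, against 9794 to 13922 CPM in the other 3.

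Cells were put into 6 classes, each led by UMIs of 1 marker: Gpihbp1 (capillary), Apln, Npr3 (endocardial), Prox1 (lymphatic), Pdgfra (fibroblast) and C1qa (macrophage). The first 4 classes also needed at least 2 of 5 endothelial genes, no Pdgfra UMI and fewer than 3 C1qa UMIs. Among them Prox1 was read first, then Npr3, Apln and Gpihbp1, so capillary cells hold no Apln UMI. Fibroblasts and macrophages could hold at most 1 of the 5 endothelial genes. Fibroblasts also needed fewer than 3 C1qa UMIs, and macrophages no Pdgfra UMI and a UMI of Csf1r or Adgre1. The pan-endothelial markers are these same 5 genes, so the gates set the direction of their contrast. Summed, they stood at 2667 to 4786 CPM in the endothelial classes, at 24.3 to 28.6 CPM in fibroblasts and at 12.8 to 28.8 CPM in macrophages. Apln-positive cells carried 15049.5 to 23304 CPM of summed capillary markers, which overlaps the 22198 to 35474 CPM of capillary cells. Of their own list, which holds the gate gene Apln, they carried 860 to 1682 CPM, against 228 to 547 CPM in capillary cells. Endocardial cells also carried 2826 to 4725 CPM of summed fibroblast markers, and the 27 capillary cells of cKit+/DDR2+/CD45+ carried 615 CPM of macrophage markers led by C1qa; the part of these in the results was not tested. Lymphatic cells carried 1091 to 4022 CPM of summed endocardial markers, and capillary cells of the cKit+/DDR2- libraries carried 3088 and 1862 CPM of summed lymphatic markers, led by Ccl21a. For these 2 classes the fits were repeated with tighter gates, named where a call changed.

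The members did not move as 1 group across cell types. Against capillary cells, 9 members could be tested, since Dusp4 fell under the filter of a mean of 5 CPM over 22 sums. With limma's moderated test on these sums, library as block and Benjamini-Hochberg adjustment over 10345 genes, fibroblasts had 4 of 9 members higher and 4 lower, where 58.8% of all genes tested passed (24.5% higher, 34.3% lower). Macrophages had 2 higher and 6 lower (58.3% of all genes, 19.2% higher and 39.1% lower). Endocardial cells had 2 higher and 4 lower (47.5%, 18.9% higher and 28.6% lower), and lymphatic cells 1 higher and 4 lower (34.3%, 19.7% higher and 14.6% lower). Apln-positive cells had 1 higher and 0 lower (7.56%, 4.20% higher and 3.35% lower), and Dusp6 alone was lower there at an unadjusted p under 0.05 in limma. Left-out libraries moved the counts over all genes by more than 1.5 times: to 225 and 422 genes, against 782, in Apln-positive cells without cKit+/DDR2+/CD45- and without cKit+/DDR2- replicate 2, to 3871, against 6084, in fibroblasts without cKit-/DDR2+, and to 2581, against 6035, in macrophages without cKit+/DDR2- replicate 2. The median log2 difference of the members was 0.37 in fibroblasts, -1.28 in macrophages, -0.35 in endocardial cells, -0.12 in lymphatic cells and -0.14 in Apln-positive cells. Over all genes tested it was -0.12, -0.29, -0.11, 0.04 and -0.04 in the same order of classes. With median-of-ratios size factors the median over all genes was 0.03 in fibroblasts and -0.07 in macrophages, and 3171 genes were higher and 2761 lower in fibroblasts, against 2535 and 3549, and 2665 higher and 3075 lower in macrophages, against 1985 and 4050. No called member changed direction with that scaling, while Spry4 in fibroblasts and Dusp6 in macrophages no longer passed. The 5 comparisons share the capillary cells.

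**Figure D1:**
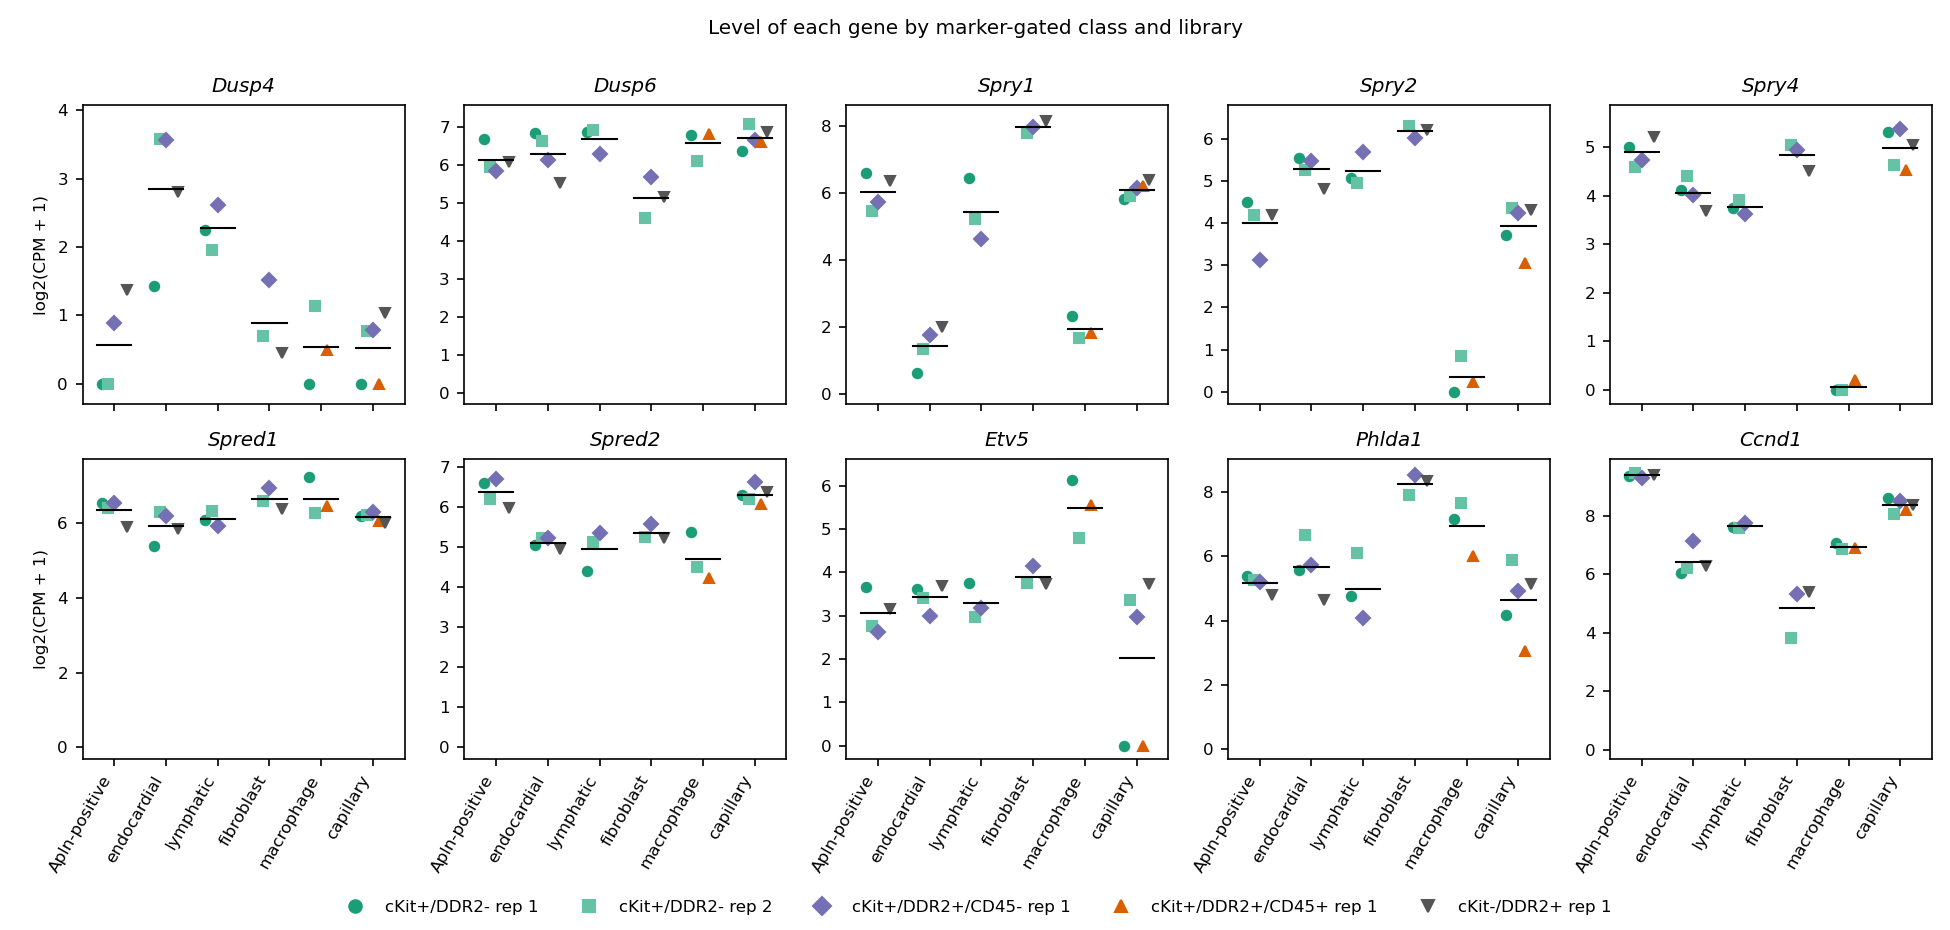
Level of each of the 10 genes, as log2(CPM + 1), in 6 marker-gated classes with capillary cells last. Each point is the UMI sum of 1 library with at least 20 cells of the class, bars are means, and the y axes differ between genes. Spry1 is low in endocardial cells and macrophages, and Spry2 and Spry4 are lowest in macrophages. Ccnd1 is highest in Apln-positive cells in each of the 4 libraries with a point for that class.

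The Sprouty genes differed widely between cell types, and each in its own way. Spry1 stood at 0.566, 1.54, 2.44 and 2.97 CPM in endocardial cells of the cKit+/DDR2- libraries (replicate 1, then 2), the cKit+/DDR2+/CD45- library and the cKit-/DDR2+ library, against 55.5, 58.7, 69.6 and 81.8 CPM in capillary cells of the same libraries. The groups were far from overlapping, and the difference was -5.24 ± 0.43 (log2 ± SE, limma adjusted p = 3.3e-09), lower in 4 of 4 libraries. All 15 alternative settings passed, with -5.35 to -3.40, the smallest difference from limma-trend on log2(CPM + 5), and a gate on any marker UMI gave -4.26. Only 1, 18, 12 and 1 UMIs lay behind the endocardial values. Those from 1 UMI, in cKit+/DDR2- replicate 1 and cKit-/DDR2+, are under what 3 counts would be worth there (1.70 and 8.92 CPM). In cKit+/DDR2- replicate 2 the level was 38.1-fold lower (95% counting interval 22.7 to 67.5). Endocardial cells were not shallower. In that library 16 of 1213 endocardial cells (1.32%, exact 95% interval 0.756 to 2.13) held a Spry1 UMI at a median of 9733 UMIs per cell, against 54 of 233 capillary cells (23.2%, 17.9 to 29.1) at 5700 UMIs, and 10 of 507 macrophages (1.97%) at 9433 UMIs. After thinning every cell to 3000 UMIs the shares were 0.501% in endocardial cells, against 13.9% in capillary cells, with 15 endocardial and 31 capillary cells left out as too shallow. Intervals on counts cover counting error only.

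Fibroblasts had the most Spry1. Its level was 220, 246 and 278 CPM in fibroblasts of the cKit+/DDR2- replicate 2, cKit+/DDR2+/CD45- and cKit-/DDR2+ libraries, above all 5 capillary values of 55.5 to 81.8 CPM, and it rose by 1.84 ± 0.14 on the log2 scale (limma adjusted p = 6.7e-10). The fibroblast sums of these libraries, used for every member, came from 143, 39 and 763 cells in the same order. Macrophages stood at 2.18 to 4.03 CPM, with a difference of -4.75 ± 0.50 from capillary cells (limma adjusted p = 6.2e-08), or -4.10 and -3.19 with limma-trend on log2(CPM + 1) and log2(CPM + 5). Lymphatic cells varied, with 85.8 and 36.7 CPM in the cKit+/DDR2- pair and 23.9 CPM in the cKit+/DDR2+/CD45- library, a range that overlapped that of capillary cells. Their difference of -0.83 ± 0.21 (limma adjusted p = 0.0034) passed in 10 of 15 alternative settings. By library, Spry1 was lower than in capillary cells in 2 of 3 and higher in 1. Settings that lost the call included the fit without the cKit+/DDR2+/CD45- library (-0.43, adjusted p = 0.17). It was also lost with Mmrn1-bearing capillary and Npr3-bearing lymphatic cells gated out (-0.15, adjusted p = 0.55). In the order of mean levels, fibroblasts led and did not overlap the next class, capillary, Apln-positive and lymphatic cells overlapped, and macrophages and endocardial cells overlapped at the low end.

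Spry2 followed another order. It was higher in endocardial cells, with 45.9, 37.5, 43.3 and 26.8 CPM in the cKit+/DDR2- libraries (replicate 1, then 2), the cKit+/DDR2+/CD45- library and the cKit-/DDR2+ library, against 12.1, 19.3, 17.9 and 18.9 CPM in capillary cells of these libraries. All 4 endocardial values lay above all capillary values, and the rise was 1.11 ± 0.19 (log2, limma adjusted p = 5.8e-05). Lymphatic cells, at 29.9 to 49.99 CPM, rose by 0.94 ± 0.22 (limma adjusted p = 0.0019), and fibroblasts, at 63.5 to 78.1 CPM, by 2.01 ± 0.18 (limma adjusted p = 4.8e-09). So Spry1 and Spry2 were both high in fibroblasts, while in endocardial cells Spry1 fell and Spry2 rose against capillary cells. In macrophages Spry2 was counted 7, 0 and 4 times in cKit+/DDR2+/CD45+ and cKit+/DDR2- replicates 1 and 2, or 0.169, 0 and 0.794 CPM. In cKit+/DDR2- replicate 2 this was 24.4-fold below capillary cells (95% counting interval 8.48 to 95.8). In cKit+/DDR2+/CD45+ the ratio was 43.4-fold, but with 1 capillary UMI its interval of 0.962 to 337 includes no difference. In replicate 1 the capillary level, from 5 UMIs, did not exceed what 3 counts would be worth in the macrophages, so no fold is given there. The fall passed limma's test (adjusted p = 2.8e-05).

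Spry4 was an endothelial and fibroblast gene in these sums and was all but missing from macrophages. It had 6 UMIs in 3328 macrophages of cKit+/DDR2+/CD45+ (0.145 CPM) and 0 in the 22 and 507 macrophages of cKit+/DDR2- replicates 1 and 2, against 21.98, 38.6 and 23.6 CPM in capillary cells of these libraries. Set against a floor of 3 counts per library, macrophages were at least 39.7-fold lower in cKit+/DDR2- replicate 2 and at least 3.19-fold lower in replicate 1. In cKit+/DDR2+/CD45+ the ratio was 152-fold (95% counting interval 24.6 to 710), with only 3 capillary UMIs. The fall passed limma's test (adjusted p = 7.6e-07), but its fitted size depends on values at 0 and is not given. Spry4 also fell in endocardial cells, at 11.9 to 20.1 CPM against 21.98 to 40.5 CPM in capillary cells, by 1.05 ± 0.19 (log2, limma adjusted p = 0.00012). In lymphatic cells it stood at 11.4 to 14.1 CPM and fell by 1.49 ± 0.27 (limma adjusted p = 0.00021), with -2.48 under the stricter gate of 3 marker UMIs and -1.09 with limma-trend on log2(CPM + 5). Fibroblasts overlapped capillary cells, at 21.7 to 31.9 CPM, and the fitted -0.44 ± 0.18 (limma adjusted p = 0.047) passed in 2 of 15 alternative settings.

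The 250 bases before the RefSeq start of Spry1, Spry2 and Dusp6 (GRCm38.p6) are printed because the first pair went opposite ways in endocardial cells and Dusp6 is a widely used readout of ERK. Capitals mark GGAA or its complement TTCC, the core bound by ETS factors such as Etv5, on either strand.
Spry1, chr3:37639697-37639946, plus strand: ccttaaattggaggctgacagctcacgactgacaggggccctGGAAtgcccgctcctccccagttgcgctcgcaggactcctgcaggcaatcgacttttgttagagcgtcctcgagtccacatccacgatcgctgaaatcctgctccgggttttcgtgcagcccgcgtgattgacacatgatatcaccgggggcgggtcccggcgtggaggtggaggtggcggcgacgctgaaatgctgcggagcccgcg
Spry2, chr14:105896820-105897069, minus strand: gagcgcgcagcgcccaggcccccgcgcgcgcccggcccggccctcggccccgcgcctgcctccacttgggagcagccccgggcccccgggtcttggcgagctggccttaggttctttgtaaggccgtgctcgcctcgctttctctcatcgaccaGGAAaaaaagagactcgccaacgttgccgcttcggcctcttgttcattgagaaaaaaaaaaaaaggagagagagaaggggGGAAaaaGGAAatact
Dusp6, chr10:99262981-99263230, plus strand: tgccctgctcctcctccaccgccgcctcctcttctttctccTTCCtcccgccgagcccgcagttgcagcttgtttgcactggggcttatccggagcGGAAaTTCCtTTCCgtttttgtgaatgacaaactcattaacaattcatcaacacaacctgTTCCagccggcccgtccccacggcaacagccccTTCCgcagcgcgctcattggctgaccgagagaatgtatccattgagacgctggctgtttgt
The core occurs 1 time before Spry1, 3 times before Spry2 and 6 times before Dusp6. It is a short string that 93.4% of 32851 promoter windows of the same length hold. None of the 3 windows holds the longer ETS string CCGGAA (12.03% of all windows), the AP-1 string TGANTCA (6.75%) or the cAMP response string TGACGTCA (1.55%) on either strand. A match is a description of letters and not a site, and no match says nothing of the factor.

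Of the Spred genes, Spred2 was lower than in capillary cells in 4 classes. Spred2, an inhibitor of RAF activation by RAS, stood at 29.7 to 36.1 CPM in endocardial cells, 19.9 to 39.8 CPM in lymphatic cells, 36.4 to 46.7 CPM in fibroblasts and 17.7 to 40.3 CPM in macrophages, against 65.9 to 97.2 CPM in capillary cells. No class but Apln-positive cells overlapped the capillary range. The log2 differences were -1.28 ± 0.12, -1.38 ± 0.16, -1.08 ± 0.13 and -1.86 ± 0.18, and the 4 limma adjusted p-values lay between 2.8e-08 and 7.6e-07. Spred1, its relative that binds neurofibromin, passed in 1 class, and the difference between the 2 genes was not tested. It ranged over 40.8 to 77.4 CPM in endocardial, 60.2 to 79.1 CPM in lymphatic and 77.0 to 149 CPM in macrophage sums, against 63.0 to 77.5 CPM in capillary sums, and only in fibroblasts, at 82.3 to 123 CPM, did it pass (0.42 ± 0.17, limma adjusted p = 0.033), without overlap. That call was kept in 9 of 15 alternative settings. Those that lost it included the fits without cKit-/DDR2+ (0.44, adjusted p = 0.17) and without cKit+/DDR2+/CD45- (0.37, adjusted p = 0.12). Without cKit+/DDR2- replicate 2, Spred1 passed in macrophages (0.98, adjusted p = 0.044, against 0.12 and 0.64 with it).

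Dusp6 overlapped the capillary range in every class but fibroblasts. It stood at 82.0 to 135 CPM in capillary cells, and the ranges of Apln-positive (55.8 to 101), endocardial (44.6 to 113), lymphatic (77.3 to 119) and macrophage sums (67.9 to 111 CPM) all overlapped it. Fibroblasts, at 23.1 to 50.4 CPM, lay below every capillary value and fell by 1.77 ± 0.21 (log2, limma adjusted p = 3.4e-07). The macrophage difference of -0.67 ± 0.22 (limma adjusted p = 0.015) rested on cKit+/DDR2- replicate 2, without which it was -0.13 (adjusted p = 0.86). By library, Dusp6 was higher in macrophages than in capillary cells in 2 of 3 and lower in 1, so the call is not a shared fall. In endocardial cells Dusp6 did not pass (-0.35 ± 0.17, limma adjusted p = 0.10), but passed without cKit+/DDR2- replicate 1 (-0.47, adjusted p = 0.036). Apln-positive cells had less Dusp6 than capillary cells in 3 of 4 libraries, and the difference did not pass (-0.67 ± 0.23, limma adjusted p = 0.093). Dusp4 stayed low everywhere, with 1.70 to 10.96 CPM in endocardial cells, 2.89 to 5.11 CPM in lymphatic cells and at most 1.87 CPM in any other class. It was higher in endocardial than in capillary cells in 4 of 4 libraries and in lymphatic cells in 3 of 3, with no test. These directions rest on few UMIs. At most 5 capillary cells of a library held a Dusp4 UMI. In cKit-/DDR2+ the endocardial value of 5.95 CPM came from 2 UMIs, under the 8.92 CPM that 3 counts would be worth. In cKit+/DDR2- replicate 1 a Dusp4 UMI was held by 3 endocardial, 2 lymphatic and 0 capillary cells.

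Among the induced targets, Ccnd1 marked Apln-positive cells, the class that carries the apelin ligand of sprouting endothelium. It had 665, 704, 637 and 676 CPM in Apln-positive cells of the cKit+/DDR2- libraries (replicate 1, then 2), the cKit+/DDR2+/CD45- library and the cKit-/DDR2+ library, against 396, 269, 367 and 333 CPM in capillary cells of these libraries. The groups did not overlap, and the rise was 0.99 ± 0.15 (log2, limma adjusted p = 0.00026), with 0.89 to 1.09 over 15 alternatives, all of which passed. Cdk6 (1.03) and Cdk4 (0.72), the kinases that cyclin D1 activates, rose with it (limma adjusted p = 0.0048 and 0.00055), while the other D-type cyclins Ccnd2 (-0.31) and Ccnd3 (-0.14) did not pass. Mki67 (1.58) and Top2a (1.99), markers of cycling cells, did not pass either (limma adjusted p = 0.061 and 0.18). The summed level of these 6 genes overlapped, at 466.3 to 635 CPM in Apln-positive cells and 410 to 498 CPM in capillary cells. Apln-positive cells were deeper than capillary cells in each of the libraries compared. In the order given for Ccnd1, their median UMIs per cell were 8280, 8176.5, 10082 and 6593, against 5906, 5700, 5992 and 5162. The part of depth in these values was not tested.

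Outside these 2 classes Ccnd1 was lower. It fell by 3.29 ± 0.23 in fibroblasts (13.1 to 41.6 CPM), by 1.82 ± 0.17 in endocardial cells (65.1 to 140 CPM), by 1.28 ± 0.21 in macrophages (115 to 133 CPM) and by 0.67 ± 0.17 in lymphatic cells (190 to 214 CPM), with limma adjusted p-values between 1.3e-10 and 0.0046. Without cKit-/DDR2+ the fibroblast difference was -4.03. All of these ranges lay below the capillary range of 269 to 396 CPM. The lymphatic fall was not kept under the tighter gates (-0.25, adjusted p = 0.32). By mean level the order was Apln-positive, capillary, lymphatic, macrophage, endocardial and fibroblast, and only macrophage and endocardial cells overlapped their neighbour. In endocardial cells Ccnd2 rose instead, by 0.86, and in lymphatic cells by 0.81 (limma adjusted p = 4.8e-05 and 0.0006).

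Phlda1 and Etv5 were highest outside the endothelium. Phlda1 had 241, 371 and 322 CPM in fibroblasts of the cKit+/DDR2- replicate 2, cKit+/DDR2+/CD45- and cKit-/DDR2+ libraries, against 58.0, 29.1 and 34.4 CPM in capillary cells, a rise of 2.97 ± 0.29 (log2, limma adjusted p = 1.3e-08). In macrophages it had 62.9 to 199 CPM and rose by 2.20 ± 0.36 (limma adjusted p = 2.1e-05), again above all capillary values of 7.33 to 58.0 CPM, with 1.46 where the library block was dropped. Endocardial cells overlapped capillary cells, at 23.8 to 101 CPM, with a rise of 0.96 ± 0.32 (limma adjusted p = 0.016), lost where the library block was dropped (adjusted p = 0.12) and with limma-trend (0.16 and 0.15 with pseudocounts of 1 and 5 CPM). Etv5 rose in macrophages by 1.77 ± 0.36 (limma adjusted p = 0.00033). Its macrophage levels were 45.9, 68.5 and 26.6 CPM in cKit+/DDR2+/CD45+ and cKit+/DDR2- replicates 1 and 2, against 0 (0 UMIs), 0 (0 UMIs) and 9.31 CPM in capillary cells, so the fitted size depends in part on the values at 0, and it was 2.88 without cKit+/DDR2- replicate 2 and 3.80 and 2.52 with limma-trend on log2(CPM + 1) and log2(CPM + 5). The other 4 classes stood between 5.15 and 16.8 CPM, and Etv5 passed in none of them.

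**Figure D2:**
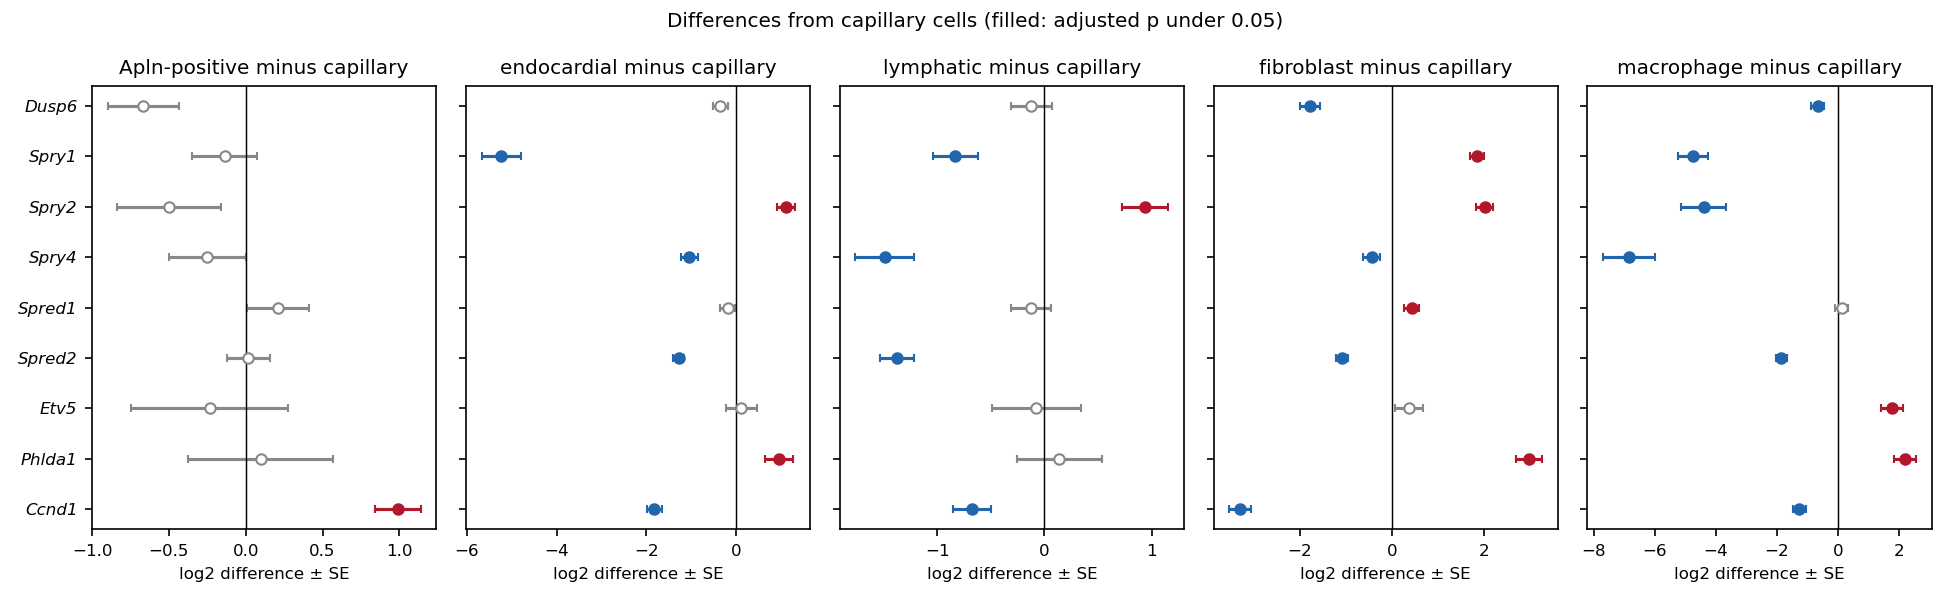
Log2 difference of each tested gene between a class and capillary cells, with its SE, from limma with library as block. Filled points have an adjusted p under 0.05, red higher and blue lower, and the x axes differ between classes; fibroblasts hold 4 filled genes on each side. The sizes for Spry4 and Spry2 in macrophages rest in part on values at 0.

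The rest of the pathway was read from lists of upstream and parallel genes. Of 17 core genes from Grb2 to Mapk3, 2 were higher and 8 lower in fibroblasts, 2 and 8 in endocardial cells, 3 and 4 in lymphatic cells, 2 and 10 in macrophages and 0 and 1 in Apln-positive cells. Over all genes tested, 24.5% were higher and 34.3% lower in fibroblasts, 18.9% and 28.6% in endocardial cells, 19.7% and 14.6% in lymphatic cells, 19.2% and 39.1% in macrophages and 4.20% and 3.35% in Apln-positive cells, so the core list lay near the share over all genes in fibroblasts, and nothing particular to the pathway is read from these counts. Mapk3 (ERK1) fell in fibroblasts by 1.65 and in macrophages by 1.26, and Hras fell in endocardial cells by 1.60, while the adaptor Shc1 rose in lymphatic cells by 1.85 (limma adjusted p between 9.7e-13 and 6.0e-09). Of 6 other feedback and ETS genes tested, 3 were higher and 1 lower in fibroblasts and in lymphatic cells, 2 higher and 2 lower in endocardial cells and in macrophages, and none passed in Apln-positive cells, also at an unadjusted p under 0.05 in limma. Lrig1, a brake on receptor tyrosine kinases, rose in endocardial cells by 4.22, and Errfi1, an inhibitor of EGF receptor kinases, fell there (-1.496) but rose in fibroblasts by 2.21 (limma adjusted p between 5.6e-12 and 3.6e-07). Etv1, another ETS factor, rose in fibroblasts by 3.76 (limma adjusted p = 6.9e-11). Among 6 other phosphatases, 4 were lower and none higher in fibroblasts, 5 lower and none higher in endocardial cells, in macrophages 1 was higher and 3 lower, in lymphatic cells 1 was higher and 2 lower, and in Apln-positive cells 1 was lower. Dusp8 fell in fibroblasts, endocardial cells and macrophages, by 1.70 to 2.54. Of 13 receptors tested, 4 were higher and 6 lower in fibroblasts, 3 and 5 in endocardial cells, 2 and 4 in lymphatic cells, 2 and 9 in macrophages and 1 and 4 in Apln-positive cells. Pdgfra and Csf1r are on this list and took part in the gates. The rise of Pdgfra in fibroblasts and of Csf1r in macrophages, 1 call in each class, was thus set in whole or in part by the gates. Fgfr1 rose in fibroblasts by 3.48, in lymphatic cells by 2.05 and in endocardial cells by 1.36, and Kdr fell in these by 7.71, 1.25 and 2.49 (limma adjusted p between 5.2e-14 and 3.4e-06). Kit fell in endocardial and lymphatic cells, by 2.16 and 1.53, and rose in Apln-positive cells by 2.30 (limma adjusted p between 4.3e-06 and 0.0021).

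Immediate early genes, which ERK also induces and which rise when tissue is dissociated, moved with several of these classes. Of 12 tested, 11 were higher in fibroblasts, 9 in macrophages, 7 in endocardial cells and 6 in lymphatic cells, and none was lower there, whereas 1, Jun, was lower in Apln-positive cells (-0.81, limma adjusted p = 0.0071). Over all genes tested 24.5%, 19.2%, 18.9% and 19.7% were higher in the first 4 of these classes. Their summed level was 15186 to 17381 CPM in fibroblasts, 11532 to 14663 CPM in macrophages, 6548 to 12023 CPM in endocardial cells, 7336 to 9718 CPM in lymphatic cells and 3310 to 6700 CPM in Apln-positive cells, against 5059 to 7432 CPM in capillary cells. Their part in the members' differences was not tested. Fibroblasts, with the highest sum, had the highest Phlda1, Spry1 and Spry2 and the lowest Dusp6 and Ccnd1.

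The same 10 genes were set between endothelial cells with and without a detected Kit transcript. Cells with a Kit UMI numbered 63, 138, 133 and 65 in the cKit+/DDR2- libraries (replicate 1, then 2), the cKit+/DDR2+/CD45- library and the cKit-/DDR2+ library, or 16.1%, 7.07%, 11.3% and 5.48% of endothelial cells. cKit+/DDR2+/CD45+ had 12 and was not used. All libraries used but cKit-/DDR2+ were sorted as positive for surface cKit. Yet 83.9%, 92.9% and 88.7% of their endothelial cells, in the same order, had no Kit UMI. A cell without a Kit UMI is thus one where Kit was not detected, not one shown to lack it. Kit itself sorted the cells and is not compared. Over all endothelial cells, median UMIs per cell were 8849, 9785, 9856 and 5848 in Kit-positive cells, against 9427, 9033, 9347 and 5268 in cells without a Kit UMI. The make-up differed. Apln-positive cells were 60.3%, 10.9%, 45.1% and 24.6% of Kit-positive cells in these libraries, against 6.40%, 1.27%, 4.77% and 6.86% of the cells without.

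Ccnd1 was the member that differed most. It had 460, 217, 517 and 484 CPM in Kit-positive cells of the cKit+/DDR2- libraries (replicate 1, then 2), the cKit+/DDR2+/CD45- library and the cKit-/DDR2+ library, against 173, 119, 228 and 325 CPM in cells without a Kit UMI. It was higher in 4 of 4 libraries, although the 2 groups overlapped across libraries, and the rise was 1.01 ± 0.12 (log2, limma with library as block, adjusted p = 0.0024). Spry1 had 73.6, 23.8, 33.5 and 103 CPM, against 33.03, 12.7, 28.03 and 73.02 CPM, and rose by 0.66 ± 0.17 (limma adjusted p = 0.036), also in 4 of 4. The Spry1 call was lost without any 1 of the 4 libraries (adjusted p 0.052 to 0.15). Spred2 was higher in 4 of 4 but did not pass (0.56 ± 0.15, limma adjusted p = 0.0503), and passed without cKit+/DDR2- replicate 2 (0.71, 0.013). These 2 calls among 9 members, both higher, stand beside 10.8% of 9907 genes tested (6.96% higher, 3.80% lower). Over all genes 1066 passed, and 255 and 324 without cKit+/DDR2+/CD45- and without cKit+/DDR2- replicate 1.

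The remaining members did not pass. Spry2 was lower in 4 of 4 libraries (-0.45 ± 0.22, limma adjusted p = 0.23), Spred1 higher in 4 of 4 (0.24 ± 0.12, 0.23), and Dusp6 and Phlda1 lower in 3 of 4 (-0.23 ± 0.14 and -0.41 ± 0.15, 0.33 and 0.12). Spry4 (0.36 ± 0.22) and Etv5 (0.42 ± 0.27) were higher in 3 of 4 (0.33 and 0.38). Dusp4 lay between 1.44 and 3.72 CPM in Kit-positive sums and between 1.304 and 8.71 CPM in sums without a Kit UMI.

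Within classes, less of this was left. With library and class together as block (6 pairs of sums from 4 libraries, 2 of which gave 2 pairs each, so the pairs are not independent), Ccnd1 differed by 0.21 ± 0.09 (limma adjusted p = 0.43), Spry1 by -0.06 ± 0.23 (0.97) and Spred2 by 0.13 ± 0.15 (0.85), and 1.27% of 9788 genes passed. In capillary cells Ccnd1 had 426 and 417 CPM with a Kit UMI, against 356 and 327 CPM without, in cKit+/DDR2+/CD45- and cKit-/DDR2+. In Apln-positive cells it had 628 and 642 CPM, against 749 and 629 CPM, in cKit+/DDR2- replicate 1 and cKit+/DDR2+/CD45-. Endocardial and lymphatic cells of cKit+/DDR2- replicate 2 had 86.0 and 291 CPM with a Kit UMI, against 73.4 and 182 CPM. Within these classes cells with a Kit UMI were deeper in 6 of 6 pairs. Their median UMIs per cell were 7885 and 5822 in capillary cells of cKit+/DDR2+/CD45- and cKit-/DDR2+, against 5795.5 and 5139 without a Kit UMI, and 8760.5 and 11315.5 in Apln-positive cells of cKit+/DDR2- replicate 1 and cKit+/DDR2+/CD45-, against 6575 and 8891.5. The part of depth in the values was not tested. Over capillary and Apln-positive cells pooled, Ccnd1 was higher by 0.39 ± 0.08 (limma adjusted p = 0.0028) and Dusp6 lower by 0.47 ± 0.13 (adjusted p = 0.025), with 10.4% of 9572 genes passing, but the share of Apln-positive cells differs between the 2 pools.

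**Figure D3:**
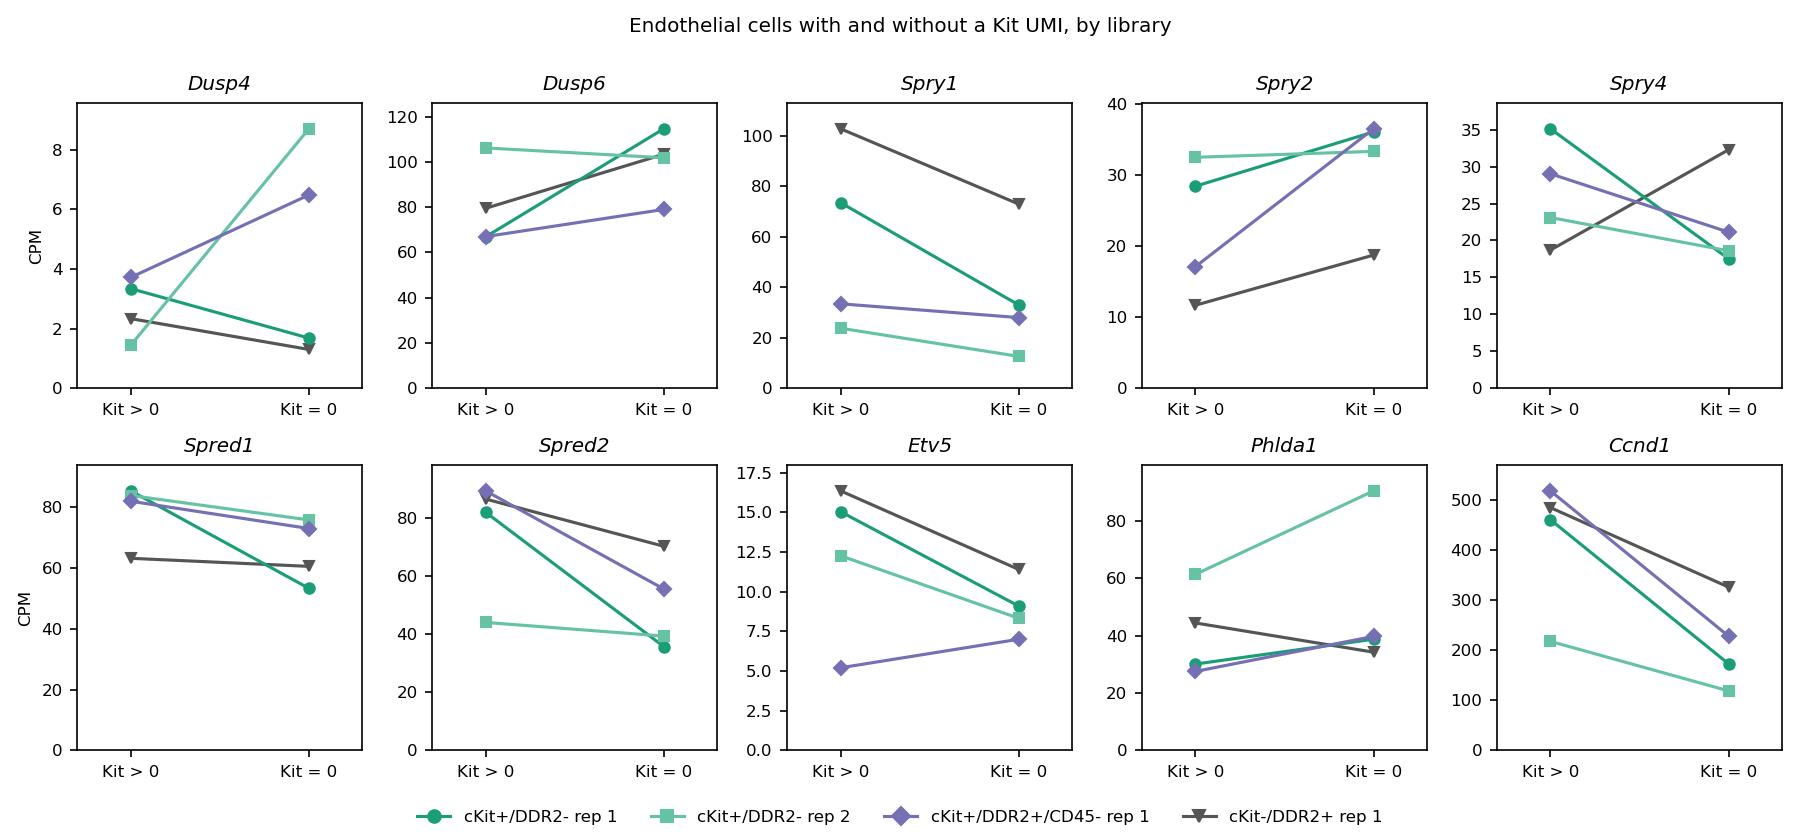
CPM of each gene in endothelial cells with a Kit UMI (left) and without (right), 1 line per library for the 4 libraries used. Ccnd1, Spry1, Spred1 and Spred2 slope down to the right in all 4 libraries, and Spry2 slopes up in all 4.

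**Figure D4:**
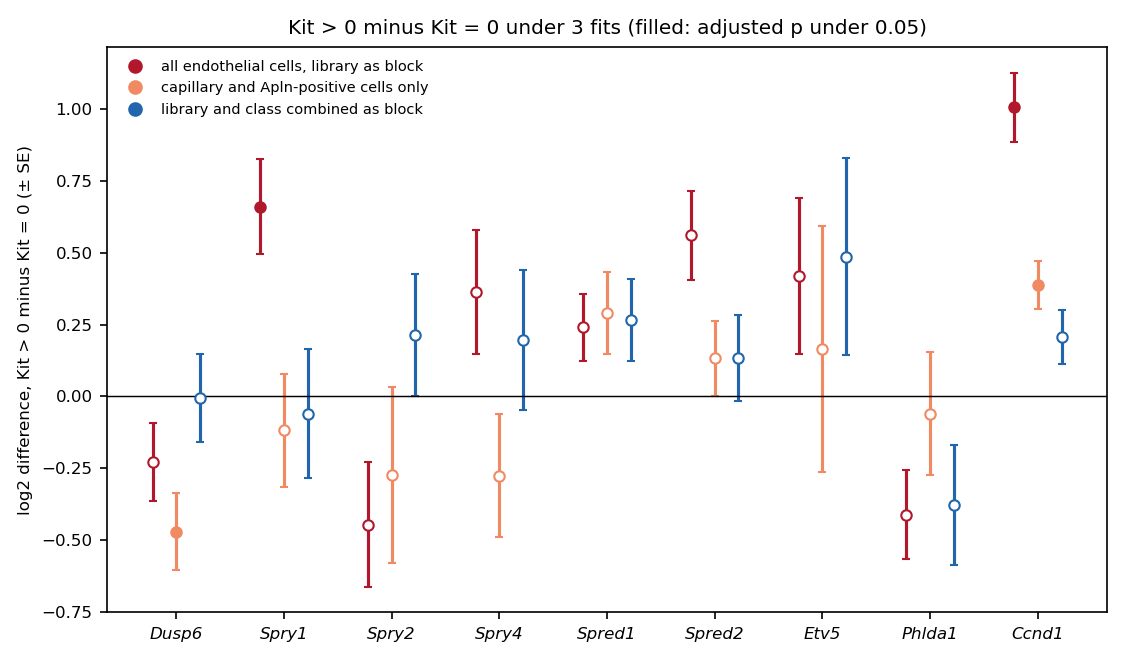
Log2 difference, Kit > 0 minus Kit = 0, with its SE, for the 9 tested genes under 3 fits, filled where the adjusted p is under 0.05. Spry1 is at 0.66 over all endothelial cells and at -0.06 with library and class as block, and Ccnd1 is at 1.01 and 0.21.

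Kit-positive cells also differed in the lists around the members, in the fit over all endothelial cells. Apln-positive cells were more frequent among them, as given above, and the part of class make-up in these values was not tested. Mki67 (3.36), Top2a (3.46), Cdk6 (1.23) and Cdk4 (0.56) rose, while Ccnd2 (-0.47) and Ccnd3 (0.15) did not pass (limma adjusted p between 0.00065 and 0.012 for the 4 that rose). Of 10 immediate early genes tested, 8 fell and none rose, beside 3.80% of all genes lower, Fos by 1.14, Ier3 by 0.97, Fosb by 0.91 and Atf3 by 0.83 (limma adjusted p between 0.0024 and 0.0045), and their part in the members' differences was not tested. None of the 17 core genes passed in limma, where at an unadjusted p under 0.05 Araf (-0.41) and Shc1 (-0.45) were lower and Hras (0.42) higher. Of the other feedback genes Errfi1 rose by 0.57 (limma adjusted p = 0.027). Dusp1, a nuclear MAP kinase phosphatase and itself an immediate early gene, fell by 0.53 (limma adjusted p = 0.0024). Of the receptors Kdr rose by 0.48, while Fgfr3 (-1.098), Flt1 (-0.66) and Tek (-0.56) fell (limma adjusted p between 0.0031 and 0.035).

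Sorts were compared within a class, where 3 of the 4 sorts have 1 library, so there is no test and a gene is counted where it is 2-fold apart and its higher side reaches 50 CPM and 20 UMIs. Ratios are of CPM with nothing added. The cKit+/DDR2+/CD45- library against cKit-/DDR2+, and cKit+/DDR2- replicate 2 against cKit-/DDR2+ in fibroblasts, set a library with high Xist and Gm42418 against 1 without, so the sort and these features cannot be told apart there. In the other 4 comparisons the cKit+/DDR2- pair holds 1 library of each kind. In capillary cells no member was 2-fold apart between cKit+/DDR2+/CD45- and cKit-/DDR2+ (2.40% of all genes were), between cKit+/DDR2+/CD45- and cKit+/DDR2- (1.07%), or between cKit+/DDR2- and cKit-/DDR2+ (1.42%). Of the 5 members above 50 CPM in the first comparison, Ccnd1 had 367 CPM, against 333 CPM, a log2 ratio of 0.14 (95% counting interval 0.03 to 0.26), and Spry1 had 69.6 CPM, against 81.8 CPM (-0.23, -0.49 to 0.02).

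Endocardial cells and macrophages each held 1 member counted as 2-fold apart, Phlda1 in both. In endocardial cells Ccnd1 had 140 CPM in cKit+/DDR2+/CD45-, against 65.1 and 74.2 CPM in cKit+/DDR2- replicates 1 and 2, with log2 ratios of 1.101 and 0.91, so 1 of the 2 was past 2-fold and it was not counted, since both had to be (0.450% of all genes were). The ratio to the mean of the 2 was 1.004, and 0.99 with 1 CPM added to both sides. Of these libraries, cKit+/DDR2+/CD45- and cKit+/DDR2- replicate 2 both have high Xist. Against cKit-/DDR2+, with 37 endocardial cells, it was 77.3 CPM and the ratio 0.85 (0.29 to 1.48), and Phlda1 had 51.6 CPM, against 23.8 CPM from 8 UMIs (1.12, 0.12 to 2.34), where 5.99% of all genes were past 2-fold, 75 higher and 115 lower. With totals that leave out Gm42418, Lars2 and mitochondrial genes these were 121 higher and 79 lower, and the median over all genes was 0.01 in place of -0.17. Phlda1 was no longer counted with a gate on any marker UMI (0.66) or with the mean over cells, where its higher side was 48.6 CPM. In macrophages Phlda1 had 62.9 CPM in cKit+/DDR2+/CD45+, against 141 and 199 CPM in cKit+/DDR2- replicates 1 and 2, with log2 ratios of -1.16 and -1.66, where 0.170% of all genes were past 2-fold. It was 1 of 5 genes so called (41 and 110 against replicate 2 and replicate 1 alone), and the replicate 1 value, from a library with Xist as low as in cKit+/DDR2+/CD45+, rests on 22 cells and 35 UMIs. In fibroblasts, Ccnd1 had 13.1 CPM (21 UMIs) in cKit+/DDR2- replicate 2, against 41.6 CPM in cKit-/DDR2+ (-1.66, -2.37 to -1.03), below the 50 CPM limit for a call, and no member was called (1.94% of all genes were, 26 higher and 36 lower, or 37 and 33 with those totals).

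Over the 22 sums, the genes whose log2(CPM + 1) ran most like a member's were named by Spearman's correlation, as a description in which sums of 1 library share its depth. Spry2 ran with Ryk (0.95) and Ghr (0.94), Ccnd1 with Itga6 and N4bp3 (both 0.93), Spry4 with Eva1b (0.92) and Efnb1 (0.91), and Spred2 with Ift122 (0.92) and Papss2 (0.91). The highest values for Dusp4 (Ncam1, 0.87), Spry1 (Tpst1, 0.88), Etv5 (Arap1, 0.84), Phlda1 (Steap3, 0.84), Spred1 (Vma21, 0.80) and Dusp6 (Foxn3, 0.77) were lower.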

How the data were processed

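Per the submitters' processing notes, the tools were Cell Ranger and Seurat 4.0.4 and the build mm10. The values deposited are natural log values per cell, ln(1 + UMIs per 10000), and hold no counts. UMIs were recovered per cell: 100% of values came out whole within 0.01 in each library. Genes that a table leaves out count as 0 in that library, and cells with under 200 genes, 500 UMIs or over 15% mitochondrial UMIs were left out (1 cell). Of 10770 cells, 1496 were in none of the 6 classes: 335 endothelial cells below every class marker gate, counted only in the Kit comparison, and 1161 outside all gates, among them cells with marks of 2 lineages, which was the only treatment of doublets.

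Gates needed 2 UMIs of Npr3 or Gpihbp1, 3 of C1qa and 1 of Prox1, Apln or Pdgfra. UMIs were summed per library and class with at least 20 cells and tested with limma 3.58.1 (voom, library as block, mean of at least 5 CPM, Benjamini-Hochberg threshold 0.05) in R 4.3.3. The fits used limma in place of a count model because the deposited unit is a log. The script was tested on simulated data. Other steps used Python 3.11.15, numpy 2.4.6, scipy 1.17.1, pandas 2.3.3 and matplotlib 3.10.9. Named genes are the 10 members, Kit, up to 4 per list and contrast among those passing, and the 2 most alike genes per member. Values of other genes, or of these genes in further contrasts, were chosen after they were seen. Members and lists were chosen with earlier results of these data known. Leaving out shared barcodes, the tighter lymphatic and capillary gates, leaving out each cKit+/DDR2- library between sorts, adding 1 CPM to the ratios between sorts, and searching promoters for the GGAA core were decided after seeing the data. Spry4 and the members without a promoter in the RefSeq table are named only.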

Additional observations from a re-analysis of the deposited data

Results flagged for a closer look

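Of 30 groups of 4 or 5 libraries (a gene in a class), 1 held a value that stood apart from its group by the gap to its neighbour: Ccnd1 in endocardial cells of cKit+/DDR2+/CD45-, at 140 CPM (688 UMIs) against 65.1 to 77.3 CPM in the other 3 libraries. The gap was 0.837 of the range. Chance gives about 1 such value in 20 groups.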

How the results depend on the processing

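Counts of genes passing over the whole table moved most. With limma-trend on log2(CPM + 1) they were 505 in Apln-positive cells, 2764 in endocardial cells, 3799 in fibroblasts and 2078 in lymphatic cells, and on log2(CPM + 5) 2978, 3993 and 2361 in the last 3, against 782, 4919, 6084 and 3549 with voom. The Apln-positive count was 500 with at least 50 cells per sum, 454 with no library block and 516 with the stricter gate. The count for Kit > 0 against Kit = 0 was 4305 with no filter on low values, 6 with no library block and 124 with library and class as block, against 1066. Leaving out 1 library gave 225 to 777 in Apln-positive cells, 3871 to 6089 in fibroblasts, 2581 to 5938 in macrophages and 255 to 1403 for Kit. Between sorts it gave 76 and 202 genes past 2-fold, against 36, for capillary cells of cKit+/DDR2+/CD45- and cKit+/DDR2-, 33 and 90, against 14, for endocardial cells of these sorts, 137 and 135, against 49, for capillary cells of cKit+/DDR2- and cKit-/DDR2+, and 41 and 110, against 5, for macrophages. Of the 7 counts between sorts, none moved by over 1.5 times with 1 CPM added to both sides, where they were 5 to 185, against 5 to 190. The cause of these shifts was not tested.

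Of 810 alternative values of the members, 728 kept direction and call, 41 lost the call, 6 gained it and 35 changed sign. Among these 35 only Spry1 by Kit was called as reported, at -0.12 in capillary and Apln-positive cells only and -0.060 with library and class as block. By Kit status, Dusp6 was 0.058 with status read at 5000 UMIs, Spry2 0.21 with library and class as block and Spry4 -0.28 in capillary and Apln-positive cells only. In Apln-positive cells, limma-trend with pseudocounts of 1 and 5 gave -0.041 and -0.032 for Spred2 and 0.76 and 0.28 for Etv5, the tighter lymphatic gates gave -0.015 for Spred2, and the stricter gate -0.047 for Phlda1. In lymphatic cells Dusp6 was 0.24 with the stricter and 0.087 with the tighter gates, Phlda1 -0.060 and -0.070 with limma-trend, and Etv5 0.013 with no filter, 1.14 and 0.51 with limma-trend and 0.067 with a gate on any UMI. Spred1 in macrophages was -0.088 with at least 50 cells per sum. Leaving out 1 library gave, in Apln-positive cells, -0.24 to 0.011 for Spry1, -0.36 to 0.026 for Spry4, -0.046 to 0.15 for Spred2, -0.45 to 0.24 for Etv5 and -0.043 to 0.16 for Phlda1. It gave -0.062 to 0.61 for Etv5 in endocardial cells, -0.0093 to 0.98 for Spred1 in macrophages and, in lymphatic cells, -0.27 to 0.025 for Dusp6, -0.33 to 0.032 for Spred1, -0.32 to 0.42 for Etv5 and -0.78 to 0.62 for Phlda1. With shared barcodes kept, Spry4 in fibroblasts no longer passed (adjusted p = 0.052). Counts over all genes were then 895 in Apln-positive cells, 6033 in fibroblasts and 6163 in macrophages, against 782, 6084 and 6035. Kit status within endocardial or lymphatic cells alone was not run, since 1 library each has 20 Kit-positive cells. No paired analysis was possible because the sorts share only the replicate number 1. With 27 capillary cells in cKit+/DDR2+/CD45+ and 22 macrophages in cKit+/DDR2- replicate 1, low members there rest on few UMIs.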
